A study of Mus musculus with 6 samples.

Results

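The Rhox genes form a cluster of homeobox genes on the X chromosome of the mouse, and 11 probes of the array, of 45281 in all, carried a gene symbol that starts with Rhox. The probes were chosen by that symbol alone, whether or not they were detected, and no signal entered the choice, but the family was picked with earlier results of this comparison known, so what follows describes these arrays and supports nothing further. The 11 probes stand for 9 of the 19057 genes named on the array: Rhox1 and Rhox12 with a pair of probes each, and Rhox5, Rhox6, Rhox8, Rhox9, Rhox10, Rhox11 and Rhox13 with 1 each. RNA came from E14 cells, an embryonic stem cell line of mouse strain 129/Ola, and was hybridised to 6 Illumina bead arrays. In 3 of the samples exon 3 of Lsd1 (current symbol Kdm1a), which encodes a histone H3 lysine demethylase, was deleted on both alleles (Δ3/Δ3). In the other 3, the controls, 1 allele had the deletion and 1 had exon 3 flanked by loxP sites (Lox/Δ3), so that all 6 samples carried at least 1 deleted allele. The labels name no clones, and no treatment or time point.

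Rhox proteins are homeodomain transcription factors of the reproductive tract: most members are expressed in testis, epididymis, ovary or placenta, and several in germ cells. The cluster is known as a target of repression by DNA methylation in embryonic cells, and Rhox5, the founding member (earlier Pem), is expressed in embryonic stem cells, extraembryonic tissue and the somatic cells of the gonads. The genes lie in order along the chromosome, from Rhox1 through the repeated Rhox2, Rhox3 and Rhox4 copies to Rhox5 and on to Rhox13. In mass cultures such as these, fewer cells expressing a gene and less RNA per cell cannot be told apart.

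Much of the cluster consists of near-identical copies. The RefSeq gene table (GRCm38.p6) lists 42 X-linked Rhox names, 33 of them protein coding, 8 pseudogenes and 1 a long noncoding RNA. Of these, 9 entries are Rhox2 copies, 9 Rhox3 copies, 8 Rhox4 copies and 4 Rhox7 copies. No probe was named for any of these copies by the platform annotation, and they are not analysed here. The promoters of 21 Rhox2, Rhox3 and Rhox4 copies in the RefSeq promoter table each matched their closest relative among the Rhox promoters at a median of 95.7% of 300 bases, the lowest at 59.0% and the highest without a difference. For the 6 probed genes with an entry the closest match was between 56.0% and 59.0%. Rhox6 and Rhox9, known earlier as Psx1 and Psx2, are close relatives of each other, and probe sequences were not used here, so whether either probe also binds the other transcript was not examined.

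RefSeq promoter sequences (300 bases that reach from upstream to just past the annotated start, GRCm38.p6) were found for 6 of the 9 probed genes, Rhox1, Rhox5, Rhox10, Rhox11, Rhox12 and Rhox13. The following 4 are shown because their probes were detected and were higher on each Δ3/Δ3 array than on any Lox/Δ3 array, and because CpG dinucleotides, the sites of DNA methylation, are what is known to matter at this cluster. Capitals mark the CpG dinucleotides.
Rhox1 (chrX:37222209-37222508, - strand): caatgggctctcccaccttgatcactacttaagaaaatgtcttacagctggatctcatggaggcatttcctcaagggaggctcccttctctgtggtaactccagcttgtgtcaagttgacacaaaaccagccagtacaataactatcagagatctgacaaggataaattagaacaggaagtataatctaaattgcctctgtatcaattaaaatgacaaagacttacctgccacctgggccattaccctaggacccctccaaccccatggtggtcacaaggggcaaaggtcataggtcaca
Rhox5 (chrX:37754358-37754657, + strand): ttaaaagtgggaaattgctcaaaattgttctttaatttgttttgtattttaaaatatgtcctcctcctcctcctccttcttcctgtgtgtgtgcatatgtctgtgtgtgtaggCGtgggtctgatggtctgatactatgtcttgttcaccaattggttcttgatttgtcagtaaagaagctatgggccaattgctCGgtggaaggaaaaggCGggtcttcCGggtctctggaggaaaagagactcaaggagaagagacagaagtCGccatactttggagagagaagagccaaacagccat
Rhox10 (chrX:38066225-38066524, + strand): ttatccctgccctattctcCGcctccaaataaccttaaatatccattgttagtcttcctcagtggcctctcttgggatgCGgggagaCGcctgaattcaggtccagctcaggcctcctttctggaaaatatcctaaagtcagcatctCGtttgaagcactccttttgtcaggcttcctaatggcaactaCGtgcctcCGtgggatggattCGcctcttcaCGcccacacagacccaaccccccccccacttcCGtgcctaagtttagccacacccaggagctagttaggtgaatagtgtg
Rhox13 (chrX:38120590-38120889, + strand): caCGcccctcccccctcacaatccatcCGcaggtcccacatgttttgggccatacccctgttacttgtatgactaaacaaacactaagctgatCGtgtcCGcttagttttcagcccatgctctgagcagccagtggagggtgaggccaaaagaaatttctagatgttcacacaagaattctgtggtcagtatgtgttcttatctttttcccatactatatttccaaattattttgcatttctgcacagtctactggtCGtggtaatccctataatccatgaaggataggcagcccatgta
The Rhox1 promoter holds 0 CpG and the other three hold 5, 9 and 5, where the median of 32851 mouse promoters of this length is 7. At least as many CpG are held by 62.0% of all promoters in the case of Rhox5 and Rhox13, and by 45.8% in the case of Rhox10. The promoters of the undetected genes Rhox11 and Rhox12 hold 7 and 3, within the range of these 4. Rhox6, Rhox8 and Rhox9 had no promoter entry, so nothing is read from this for the family. Of 3 motifs searched on both strands, the ETS-type CCGGAA was in the Rhox5 window (14.9% of all promoters have it), the GC box GGGCGG was in the Rhox12 window (35.7%), and the E-box CACGTG was in none of the 6 windows (7.15%). Methylation was not measured, and a match is a match of letters only.

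Both genotypes expressed part of the cluster, and the same probes were detected in both. Signals were read with their detection p-value, the deposited measure of whether a probe stands above background, at a threshold of 0.05. By this measure 7 of the 11 probes, those of Rhox1, Rhox5, Rhox6, Rhox9, Rhox10 and Rhox13, were detected on all 6 arrays, and the remaining 4, those of Rhox8, Rhox11 and Rhox12, on none. At a stricter detection p of 0.01 the 2 Rhox1 probes were detected on all 3 Δ3/Δ3 arrays but on 1 of the 3 Lox/Δ3 arrays each, and the other 5 on all. Because these 7 probes were detected in every sample of both genotypes, none entered the comparison through 1 genotype alone.

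**Figure D1:**
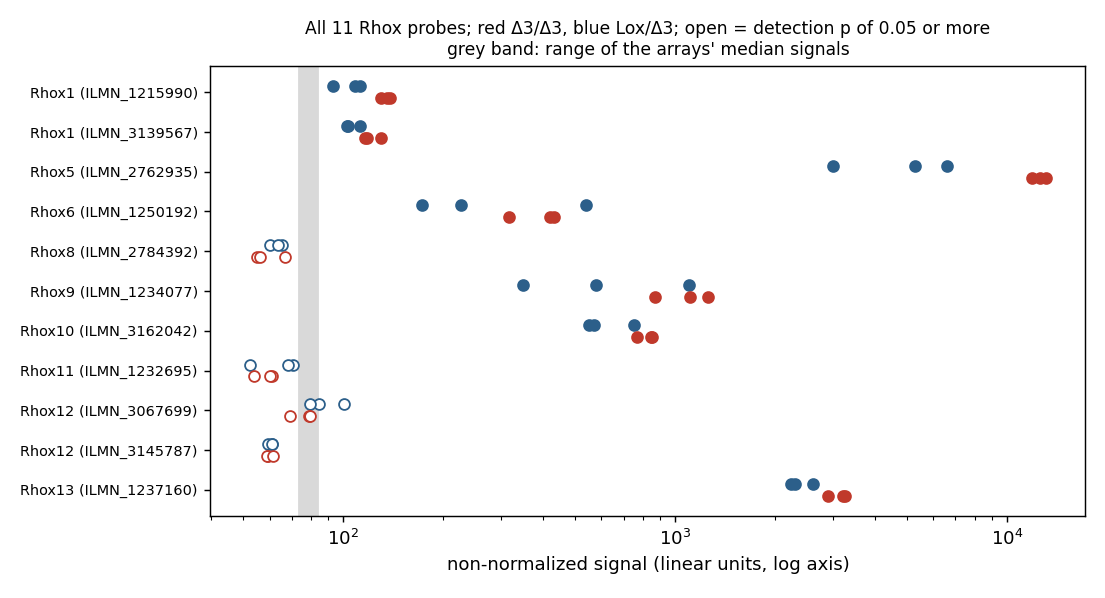
Non-normalized signal (linear units on a log axis) of the 11 Rhox probes on 6 arrays, Δ3/Δ3 in red and Lox/Δ3 in blue, with open circles where the detection p was 0.05 or more. The 4 probes of Rhox8, Rhox11 and Rhox12 have open circles on all arrays and lie near the grey band, the range of the arrays' median signals (73.8 to 83.7).

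The undetected probes were at background. The Rhox8 probe (ILMN_2784392), for a gene expressed in Sertoli cells of the testis, had raw signals of 66.7, 55.2 and 56.0 on Δ3/Δ3 arrays 1 to 3 and 60.0, 65.5 and 63.8 on Lox/Δ3 arrays 1 to 3, with detection p-values of 0.298 and above. The Rhox11 probe (ILMN_1232695) had 61.0, 53.8 and 60.1 against 70.5, 68.4 and 52.5, with detection p-values between 0.257 and 0.831. One Rhox12 probe (ILMN_3067699) came nearest to detection, with 79.1, 69.2 and 79.4 in Δ3/Δ3 and 100.4, 84.7 and 79.4 in Lox/Δ3 and a lowest detection p of 0.0577, and the other (ILMN_3145787) stayed between 58.8 and 61.4 on all arrays. In each of these 4 the arrays of the genotypes overlapped, and at background signal a difference was not detectable.

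The targeted gene was lower in the samples labelled Δ3/Δ3. The Kdm1a probe (ILMN_1254253), whose place relative to exon 3 was not examined, was 2.94-fold lower in Δ3/Δ3, a difference of -1.56 ± 0.15 (log2, SE) with a limma adjusted p of 0.0189 over 19652 tested probes. Each array detected 18506 to 19799 probes.

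Among the 7 detected Rhox probes all 7 had a higher mean in Δ3/Δ3 than in Lox/Δ3 cells, by 0.40 to 1.53 on the log2 scale (1.32-fold to 2.90-fold), and the values on the arrays did not overlap in 5 of them. No Rhox probe (0 of 7) passed limma's Benjamini-Hochberg threshold of 0.05. Of all 19652 tested probes 1.15% passed it, in either direction, 0.901% higher in Δ3/Δ3 and 0.249% lower. The 5 probes without overlap were Rhox1 (both probes), Rhox5, Rhox10 and Rhox13, all with an unadjusted limma p under 0.05. Of all tested probes 10.4% were higher in Δ3/Δ3 without overlap, 22.2% did not overlap in either direction, 16.4% had an unadjusted p under 0.05 and 46.1% had a higher mean in Δ3/Δ3. The median difference was 0.69 over the 7 probes and -0.025 over all tested probes. As the family was picked with results known, nothing is read from these shares.

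**Figure D2:**
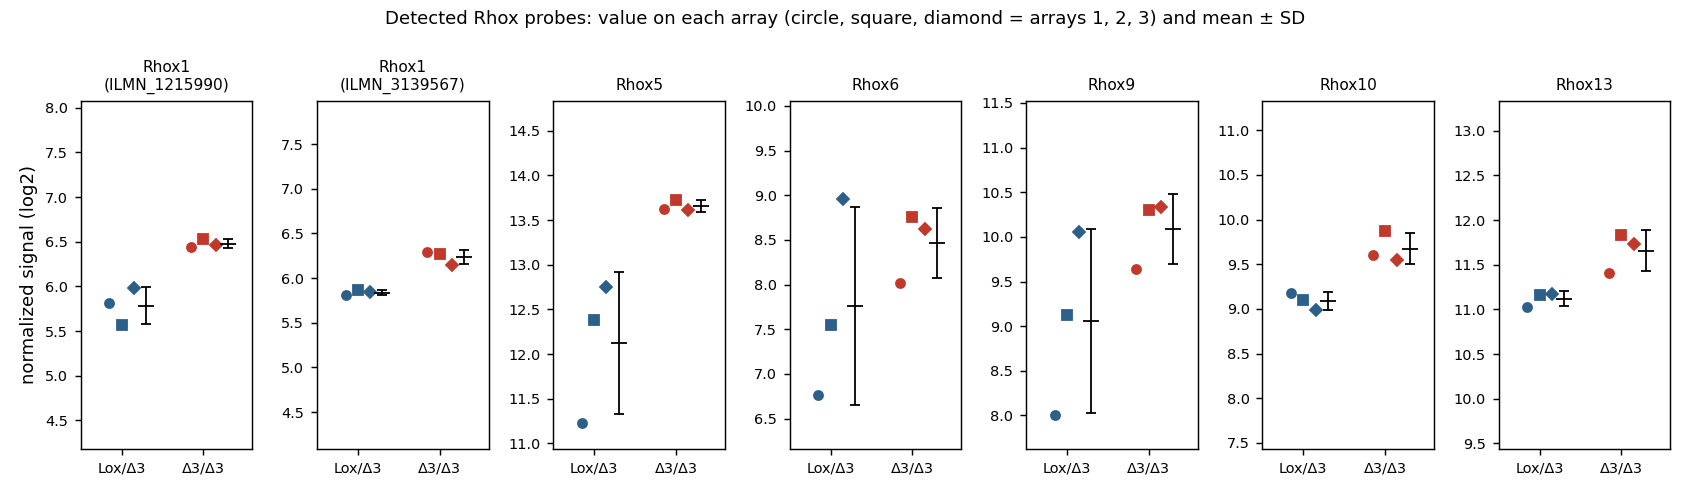
Normalized signal (log2) of the 7 detected Rhox probes on each array, Lox/Δ3 in blue and Δ3/Δ3 in red, with mean ± SD of 3 arrays in black; each panel spans the same number of log2 units. Rhox5 sits between 13.61 and 13.73 on the Δ3/Δ3 arrays and between 11.23 and 12.76 on the Lox/Δ3 arrays, and in Rhox6 and Rhox9 the genotypes overlap.

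Rhox5 had the largest difference. Its probe (ILMN_2762935) read 13108, 12638 and 11942 in raw signal on Δ3/Δ3 arrays 1 to 3 and 2993, 5274 and 6614 on Lox/Δ3 arrays 1 to 3. After background correction and quantile normalization these became 13.62, 13.73 and 13.61 against 11.23, 12.38 and 12.76 (log2). All Δ3/Δ3 arrays lay above all Lox/Δ3 arrays, and the lowest raw Δ3/Δ3 signal was 1.81 times the highest of Lox/Δ3. The Δ3/Δ3 arrays lay close together and the Lox/Δ3 arrays far apart: the means were 13.66 ± 0.064 and 12.12 ± 0.80 (SD, n = 3 each). The difference of 1.53 ± 0.34 (log2, SE) had a 95% interval of 0.75 to 2.31, or 2.90-fold at its centre, and missed the threshold (limma adjusted p = 0.0739). Leaving out Lox/Δ3 array 3 gave 1.86, which passed (limma adjusted p = 0.0341). Leaving out the lowest control, Lox/Δ3 array 1, gave 1.09 (limma adjusted p = 0.0623).

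Rhox6 and Rhox9, homeobox genes of placenta and germ cells, varied so much between control arrays that the genotypes overlapped. Rhox9 (ILMN_1234077) stood at 9.63, 10.30 and 10.33 on the Δ3/Δ3 arrays and at 8.002, 9.13 and 10.06 on the Lox/Δ3 arrays (log2). Its Lox/Δ3 array 3 lay above Δ3/Δ3 array 1 and below the other two Δ3/Δ3 arrays. Rhox6 (ILMN_1250192) stood at 8.02, 8.76 and 8.62 on the Δ3/Δ3 arrays and at 6.77, 7.55 and 8.96 on the Lox/Δ3 arrays. Here Lox/Δ3 array 3 was the highest of the 6. The differences were 1.03 ± 0.46 (SE) for Rhox9, with a 95% interval of -0.020 to 2.07, and 0.71 ± 0.49 for Rhox6, with an interval of -0.41 to 1.82 (limma adjusted p = 0.313 and 0.527). Both intervals include 0. Without Lox/Δ3 array 3 they were 1.53 and 1.31 (limma adjusted p = 0.0634 and 0.0615). Leaving out Lox/Δ3 array 1 instead gave 0.49 and 0.21 (limma adjusted p = 0.636 and 0.912).

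The remaining members differed by less and varied less between control arrays. Rhox10, which acts in the formation of spermatogonial stem cells, read 9.60, 9.88 and 9.55 in Δ3/Δ3 and 9.18, 9.10 and 8.99 in Lox/Δ3 (ILMN_3162042, log2). Rhox13, a gene of fetal and postnatal germ cells, read 11.40, 11.84 and 11.73 against 11.02, 11.16 and 11.18 (ILMN_1237160). In both genes each Δ3/Δ3 array was above each Lox/Δ3 array. The differences were 0.59 ± 0.14 (SE; 95% interval 0.27 to 0.90) for Rhox10 and 0.54 ± 0.15 (0.20 to 0.88) for Rhox13, or 1.501-fold and 1.453-fold, and neither passed (limma adjusted p = 0.0872 and 0.128).

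Rhox1 was read by a pair of probes, both weak. ILMN_1215990 stood at 6.44, 6.53 and 6.46 in Δ3/Δ3 and at 5.81, 5.56 and 5.98 in Lox/Δ3 (log2), from raw signals between 93.3 and 138.4. ILMN_3139567 stood at 6.29, 6.27 and 6.15 against 5.81, 5.86 and 5.84, from raw signals between 103.0 and 129.7. Both probes separated the genotypes in the same direction, the first by 0.69 ± 0.14 (SE; 95% interval 0.37 to 1.02) and the second by 0.40 ± 0.12 (0.13 to 0.67), with limma adjusted p-values of 0.0630 and 0.144. Without Lox/Δ3 array 3 the first passed at 0.79 (limma adjusted p = 0.0418). The size of both depended on the background correction, as holds for signals near background: with none the differences were 0.41 and 0.23.

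**Figure D3:**
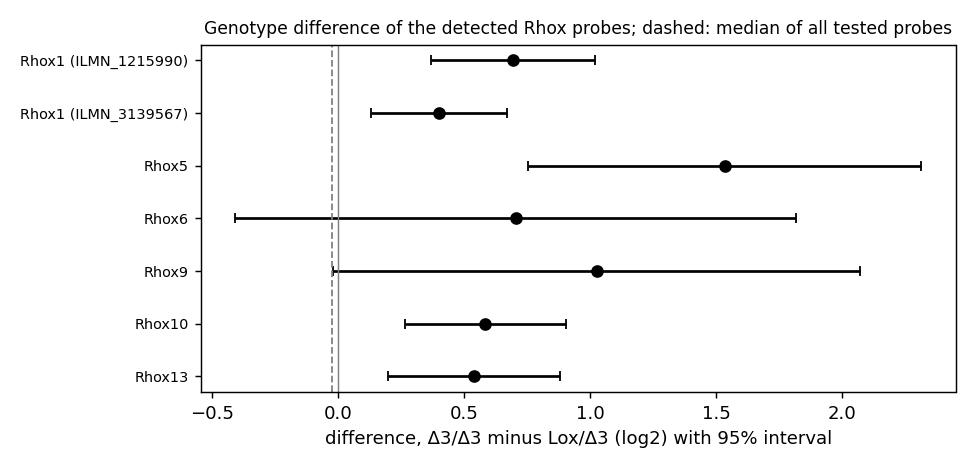
Difference between genotypes (Δ3/Δ3 minus Lox/Δ3, log2) of the 7 detected Rhox probes, with 95% intervals from the limma fit over all tested probes; the dashed line is the median of all tested probes, -0.025. All 7 points lie above 0, and the intervals of Rhox6 and Rhox9 include it.

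The members differed in their spread between control arrays. Among the Lox/Δ3 arrays Rhox5, Rhox6 and Rhox9 had SDs of 0.80, 1.11 and 1.03 (log2, n = 3), larger than those of 99.0%, 99.7% and 99.6% of all tested probes. Their values ran over 1.53, 2.19 and 2.06 log2 units, in each case lowest on array 1 and highest on array 3. Of all tested probes 33.8% had their lowest control value on array 1. Rhox10 and Rhox13 had control SDs of 0.099 and 0.083, and the Rhox1 probes 0.21 and 0.027, against a median of 0.175 over all tested probes. Among the Δ3/Δ3 arrays the SDs of Rhox6 and Rhox9 were 0.39 each, larger than those of 91.1% and 91.2% of probes, while that of Rhox5 was larger than 9.34%. Once the mean of each genotype was removed, the values of Rhox6 and Rhox9 went together over the 6 arrays (r = 0.98). Those of Rhox5 went with Rhox9 (r = 0.92) and with Rhox6 (r = 0.86). Rhox10 did not go with Rhox5, Rhox6 or Rhox9 (r = -0.39, -0.31 and -0.35). For Rhox13 the correlations with Rhox5, Rhox6 and Rhox9 were 0.38, 0.59 and 0.62. For the Rhox1 probe ILMN_1215990 they were 0.14, 0.56 and 0.37, and for ILMN_3139567 they were 0.30, 0.0067 and -0.011. These correlations describe 6 arrays that share their hybridisations, and the Rhox6 and Rhox9 probes may share targets.

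Primitive endoderm markers stood apart on the same control array. Of 13 tested primitive endoderm markers (16 listed) 11 were highest on Lox/Δ3 array 3, among them the basement membrane genes Col4a1 (12.73 there, with 10.46 and 10.43 for the remaining controls) and Lama1 (12.24 against 10.40 and 10.35) and the transcription factor gene Gata6 (9.01 against 7.56 and 7.09). Their summed normalized signal was 29245 on that array, 9017 and 8509 on control arrays 1 and 2, and 8725 to 12243 on the Δ3/Δ3 arrays. Foxa2, Afp and Ttr, defining genes of later endoderm, were detected on no array. Of the 13 endoderm markers 3 were higher and 10 lower in Δ3/Δ3, and 0 were called. The share of all tested probes that were highest on Lox/Δ3 array 3 was not counted. The 2 endoderm markers with the smallest p were the transcription factor genes Sox7, at -1.09, and Gata4, at -0.27 (limma adjusted p = 0.281 and 0.376). Of 9 tested trophoblast markers (15 listed) 5 were highest on Lox/Δ3 array 3, with sums of 7278 to 11711 in Lox/Δ3 and 7780 to 11437 in Δ3/Δ3, and Elf5, Hand1, Tpbpa and Esx1 were detected on no array. Of these 9 markers 5 were higher and 4 lower in Δ3/Δ3. The 2 with the smallest p were the T-box gene Eomes, at 0.44, and the keratin gene Krt7, at -0.73, both without overlap (limma adjusted p = 0.155 and 0.156). A lack of overlap, in either direction, was seen in 22.2% of all tested probes. Tfap2c, also without overlap, was at 0.87 and Gata3 at 0.72, while the keratin genes Krt19 and Krt8 were at -0.74 and -0.71 (limma adjusted p from 0.188 to 0.367). The part of these markers in the high Rhox6 and Rhox9 values of Lox/Δ3 array 3 was not tested, and the values of both genes without that array are given above.

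**Figure D4:**
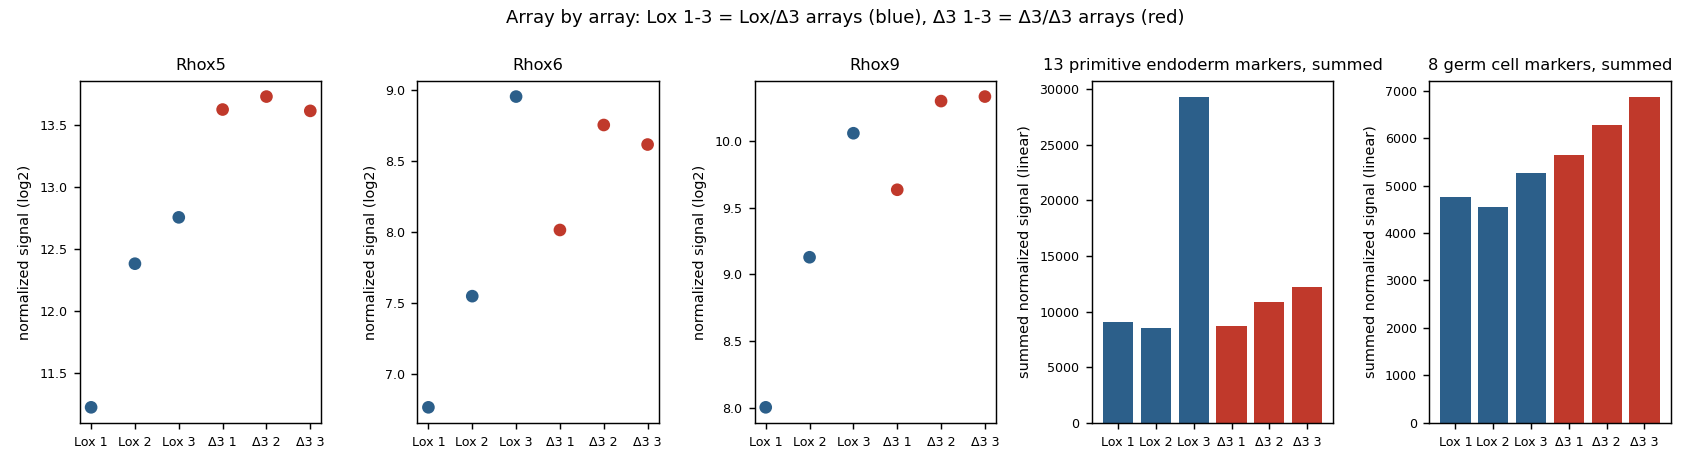
Normalized signal of Rhox5, Rhox6 and Rhox9 (log2, points, axes not starting at 0) and summed normalized signal of 13 primitive endoderm and 8 germ cell markers (linear, bars) on each array, Lox/Δ3 in blue and Δ3/Δ3 in red. Endoderm markers sum to 29245 on Lox/Δ3 array 3 and to 12243 or less on the others, and Rhox6 is highest on that array.

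The summed germ cell markers did not overlap between genotypes, and this rested on Dppa3. The 8 tested of 12 listed summed to 5652 to 6858 in Δ3/Δ3 and to 4542 to 5266 in Lox/Δ3, but 5 of the 8 had a lower mean in Δ3/Δ3 and 0 were called. Dppa3, a gene of germ cells and naive stem cells, read 10.86, 10.91 and 10.93 in Δ3/Δ3 and 6.85, 9.52 and 8.87 in Lox/Δ3, so that, as for Rhox5, Lox/Δ3 array 1 was the lowest and the Δ3/Δ3 arrays lay close together (difference 2.49 ± 0.57 SE, limma adjusted p = 0.0801). Without Dppa3 the other 7 summed to 3812, 4379 and 4927 in Δ3/Δ3 and to 4658, 3826 and 4815 in Lox/Δ3, which overlap. Nanos3, an RNA-binding factor of germ cells, was detected on 3 Δ3/Δ3 arrays and on 0 Lox/Δ3 arrays. It thus entered the tested probes through Δ3/Δ3 alone. Nothing is read from its difference of 0.77 ± 0.22 (SE, limma adjusted p = 0.130). The defining genes Mael, Sycp3 and Tdrd1 were detected on no array. The part of germ-like cells in the Rhox differences was not tested. The stem cell markers, 15 tested of 16, summed to 113805 to 120277 in Δ3/Δ3 and to 117897 to 128388 in Lox/Δ3, with 0 called and a median difference of -0.086, and Nr0b1 was detected on no array. The 2 with the smallest p were Utf1, at -0.41, and Tbx3, at -0.20 (limma adjusted p = 0.358 and 0.479).

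Of the fibroblast markers, which would show feeder cells, 4 of 12 were tested and 0 called, and their sums overlapped, at 5583 to 11434 in Δ3/Δ3 and 3652 to 14820 in Lox/Δ3. Of the 4, 2 were higher and 2 lower in Δ3/Δ3. The higher pair, Thy1 and Vim, did not overlap between genotypes, as was the case in either direction for 22.2% of all tested probes. Col1a1, at -0.67, and Acta2, at -0.34, were lower with overlap (limma adjusted p = 0.615 and 0.840). Thy1, a surface glycoprotein gene, read 9.63, 9.96 and 9.91 in Δ3/Δ3 and 7.49, 8.33 and 8.82 in Lox/Δ3, with the controls in the same order as for Rhox5. Its difference was 1.62 ± 0.30 (SE), or 3.07-fold (limma adjusted p = 0.0506). Vim, an intermediate filament gene, was higher in Δ3/Δ3 by 0.62 ± 0.22 (limma adjusted p = 0.217), with the controls in the opposite order. The part of fibroblast-like cells in the Rhox differences was not tested. The genes Col1a2, Col3a1, Col6a1, Postn, Lum, Dcn and S100a4 were detected on no array.

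The genes beside the cluster on the X chromosome differed less than Rhox5, but some differed as much as other Rhox probes. Of the 10 nearest tested genes on each side, 16 were higher and 4 lower in Δ3/Δ3 and the median difference was 0.14. In limma 0 of the 20 passed after adjustment, 5 had an unadjusted p under 0.05 (16.4% of all tested probes did), and 7 did not overlap (22.2% of all). A higher mean in Δ3/Δ3 was seen in 46.1% of all tested probes. Next to the cluster, Rnf113a1, a spliceosome-associated gene, was at -0.25 ± 0.18 (SE), and Lamp2, a lysosomal membrane gene on the Rhox13 side, was at 0.48 ± 0.18 (limma adjusted p = 0.560 and 0.238). The tenth gene on that side, Xpnpep2, which encodes an aminopeptidase, had the largest difference of the 20, 1.13 ± 0.23 (limma adjusted p = 0.0636). This was above each Rhox probe except that of Rhox5. Smarca1, on the same side, was at 0.60 ± 0.18 (limma adjusted p = 0.157), beside 0.59 for Rhox10 and 0.54 for Rhox13. Zbtb33, which encodes the methyl-CpG binding factor Kaiso and lies within the span of the Rhox names, was at -0.0093 (limma adjusted p = 0.982). Over the X chromosome 17 of 381 tested genes, or 4.46%, were called in either direction, none of them a Rhox gene, and over all 10712 tested genes 141, or 1.32%, with median differences of 0.10 and -0.025. The difference between these shares was not tested.

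**Figure D5:**
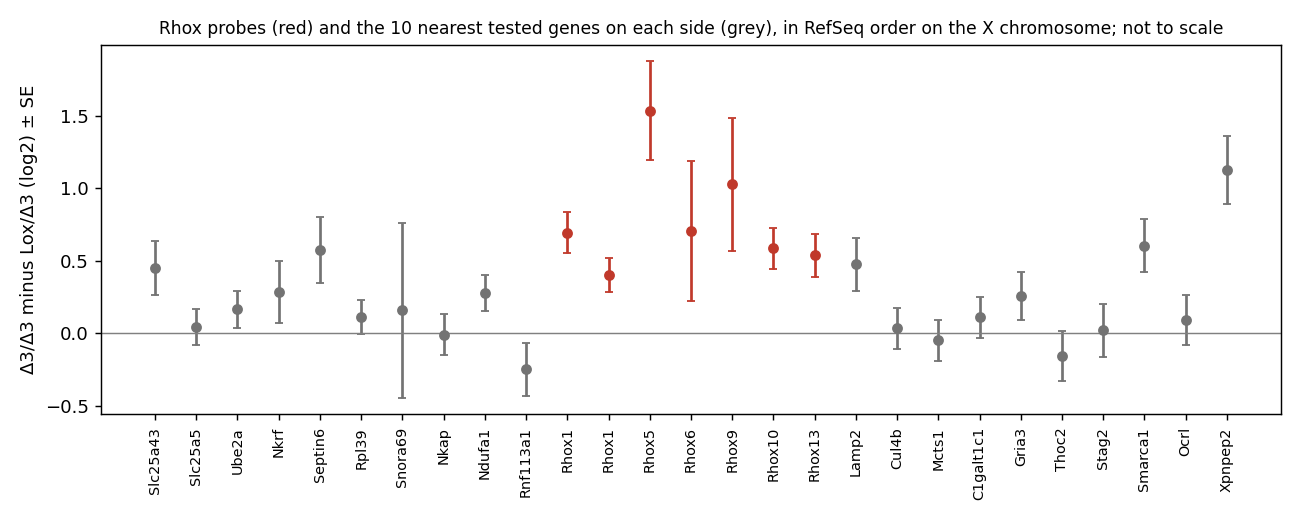
Difference between genotypes (Δ3/Δ3 minus Lox/Δ3, log2, ± SE) of the 7 detected Rhox probes (red) and of the 10 nearest tested genes on each side (grey), in RefSeq order along the X chromosome with equal spacing. Neighbours lie between -0.25 and 1.13 and the Rhox probes between 0.40 and 1.53.

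No gene of a list on DNA methylation and silencing was called. Of its 12 tested members (17 listed), 10 were lower and 2 higher, and 0 were called. The median was -0.16, where the median of all tested probes was -0.025. The list mixes genes that act toward and against DNA methylation, so nothing on silencing is read from these counts. Tet1, which oxidises methylcytosine as a step toward its removal, was at -0.59 ± 0.15 (SE, limma adjusted p = 0.0985). Ehmt2, which methylates histone H3, was at -0.47 ± 0.15 (limma adjusted p = 0.176). Trim28 was at -0.38 (limma adjusted p = 0.203). The maintenance methyltransferase gene Dnmt1 was at -0.15 and its partner Uhrf1 at -0.19, and the de novo enzyme gene Dnmt3b was at -0.18 (limma adjusted p from 0.512 to 0.689). Tet1, Ehmt2, Trim28 and Uhrf1 did not overlap between genotypes, as was so in either direction for 22.2% of all tested probes. The other tested members of the list overlapped. Dnmt3a, Hells and Tet3 were detected on no array. Of 11 tested germline genes that DNA methylation is known to silence (18 listed), 7 were higher and 4 lower, with a median of 0.23 and 0 called. The testis tubulin gene Tuba3a was at 0.91 ± 0.17 and the dipeptidase gene Dpep3 at 0.92 ± 0.21 (limma adjusted p = 0.0532 and 0.0801), while Ddx4 was at -0.37 and Taf7l at -0.62. Of 29 listed relatives of the Rhox genes in the PRD class of homeobox genes 4 were tested and 0 called. Otx2, a gene of the epiblast and anterior brain, was at 0.61 and the organizer gene Gsc at 0.60, Otx1 at 0.40 and Phox2a at -0.020 (limma adjusted p from 0.200 to 0.988). Gsc was detected on 3 Δ3/Δ3 arrays and on 1 Lox/Δ3 array. The Δ3/Δ3 arrays alone were thus enough for it to be tested, and nothing is read from its difference.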

How the data were processed

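Total RNA of 6 samples, 3 of each genotype and grouped by the genotype in their labels, was labelled as biotinylated cRNA, per the labels' protocols. The deposited non-normalized table holds 1 linear intensity per probe and array, and beside it a deposited detection p-value. Each p-value column fell with its own array's signal with 0 rank violations and with at least 15210 against another array. The authors' value table holds intensity values that are these signals times 1 constant per array, from 11.9 to 13.6, and was used as an alternative. The sources used here do not give the scanner software.

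Probes were named from the platform annotation, of which 34885 had 1 symbol, 18 several and 10378 none, and 34807 were matched to RefSeq (GRCm38.p6). Background was corrected by nec in limma (offset 16), followed by quantile normalization and log2. The 19652 probes that 3 or more of the 6 arrays detected at p under 0.05 were tested with lmFit and eBayes, two-sided, genotype as the single term, with Benjamini-Hochberg adjustment over all of them. The fit was tested on simulated data. For gene lists and neighbours a gene stands as its brightest tested probe, and summed signals are linear with the offset removed. The offset pulls fold changes of weak probes toward 1, and the number of arrays limits the precision. Levels of different probes are not comparable. The series text calls the samples biological replicates but names no separate clones or cultures, so the p-values reflect sample spread that may be technical.

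All 11 Rhox probes are reported. Beyond them the text names Kdm1a as a check of the labels, up to 3 called members of each of the 3 gene lists on silencing, germline and PRD-class genes or otherwise the 2 with the smallest p, the neighbours and, for the brightest Rhox probe, the 5 probes with the most similar values. Further members of the lists, and all named marker genes of cell types, were chosen after their values were seen, for their known role. The members and lists were chosen with earlier results of these data known. Alternatives were other background corrections and normalizations, the authors' values, other filters, 1 probe per gene, array weights, another variance prior, a replicate block and leaving out each array. R 4.3.3, limma 3.58.1, Python 3.11.15, Biopython 1.88 and matplotlib 3.10.9 were used.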

Additional observations from a re-analysis of the deposited data

How the results depend on the processing

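The 7 detected Rhox probes were higher in Δ3/Δ3 under each of the 15 or 16 alternatives run for each. The call of 0 Rhox probes became 1 with the authors' value table (Rhox5, limma adjusted p = 0.0480), 3 with array weights (Rhox1 ILMN_1215990, Rhox5 and Rhox10, limma adjusted p = 0.0192, 0.0362 and 0.0432) and 1 with the replicate block (Rhox5, limma adjusted p = 0.0403). Over these alternatives the limma adjusted p ran from 0.0341 to 0.223 for Rhox5, from 0.0192 to 0.186 for that Rhox1 probe and from 0.0432 to 0.200 for Rhox10. With 1 array left out the count ran from 0 to 2, the 2 without Lox/Δ3 array 3. Rhox6 ran from 0.21 to 1.31 and Rhox9 from 0.49 to 1.53, both lowest without Lox/Δ3 array 1 and highest without Lox/Δ3 array 3. Over all probes the 226 calls became 7 with no filter on weak probes, 113 with detection on all 6 arrays, 140 with 1 probe per gene, 669 with array weights and 601 with the replicate block. Same-numbered samples deviated together at correlations of 0.35, 0.055 and 0.37, which does not settle whether they were handled as pairs. The main fit left the number out, and the replicate block gives the result with it. With 1 array left out the calls over all probes ran from 0 to 414. In limma they were 0 without any 1 Δ3/Δ3 array, where 2509, 3001 and 2554 probes had an unadjusted p under 0.05. They were 46 and 57 without Lox/Δ3 array 1 and 2, and 414 without Lox/Δ3 array 3. The sum of germ cell markers, 1410 higher on average in Δ3/Δ3, was at -60 without Dppa3, an alternative chosen after seeing the data. The causes were not tested.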

Other observations

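Over the 6 arrays the probe of Rhox5 was most closely followed by those of the pepsinogen gene Pgc, the sperm gene Spag4, the glutaminyl cyclase gene Qpct, the glypican gene Gpc3 and the phosphomannomutase gene Pmm1, with Pearson correlations of 0.994 to 0.998 on the log2 scale. Pgc stood at 8.63, 8.67 and 8.58 on the Δ3/Δ3 arrays and at 7.92, 8.25 and 8.38 on the Lox/Δ3 arrays, and Qpct at 8.49, 8.60 and 8.36 against 6.42, 7.35 and 7.53. The 5 were picked for this likeness. That their Lox/Δ3 values, as those of Rhox5, were lowest on array 1 and highest on array 3 follows from the choice. A correlation over 6 arrays of 2 genotypes is a description: 280 tested probes of other genes correlated with Rhox5 above 0.95. None of the 5 was called (limma adjusted p from 0.0562 to 0.190).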
